A study of Oryctolagus cuniculus with 12 samples.

Results

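Among 12 New Zealand White rabbits, 83 genes measured by RNA sequencing of uterine body tissue were listed at exactly 0 in at least 1 animal and at 5 FPKM or more in at least 1 other. FPKM is a read count scaled to transcript length and library size, so levels of different genes can be set side by side. The genes were chosen by these values over all 12 libraries, without regard to treatment, among genes with an Ensembl identifier. Loci that the authors assembled themselves and the gene PPIA were left out. The 83 are called on-off genes here, and they were 0.855% of the 9710 Ensembl genes that reached 5 FPKM in some library, out of 15521 Ensembl genes and 17301 genes in all. Because these values chose the genes, their spread is described and not tested.

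There were 4 groups of 3 animals, 1 library each, from rabbits whose estrus and ovulation had been synchronised with gonadotropins. Control animals received saline and an injection without drug. LPS animals received lipopolysaccharide at 4 mg/kg, a component of Gram-negative bacterial envelopes that innate immune cells recognise, and CsA animals received 20 mg/kg of cyclosporine A, a calcineurin inhibitor, by intramuscular injection. LPS+CsA animals received both. Sampling followed after 3 h. The labels contradict each other on whether the infusion was uterine or vaginal, on the vehicle of the injection and on its timing, and they give no age. Replicate numbers run from 1 to 3 in each group and are not said to link animals across groups.

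An exact 0 in an FPKM table can mean that no read was assigned to the gene or that the estimate failed, so such values are given as listed at 0. In bulk tissue, fewer cells of a type and less RNA per cell cannot be told apart. The uterine lining holds scattered ciliated cells among its secretory epithelium, and their number changes with the hormonal cycle. Ribosomal proteins and chromatin remodelling subunits, by contrast, are used by nearly every cell. Among the on-off genes are some that the authors' annotation places in each kind, and whether each locus is the gene named was not tested.

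The authors' comparison tables annotate 7 of the 83, and 3 of these carry a symbol: FOXJ1, C20orf85 and IBSP. Annotation text names the other 4 as RPL3, SMARCE1, SLC25A36 and an olfactory receptor, and these names are used here as labels. The remaining 76 are known here only by their Ensembl identifier. The annotated share was 8.43%, against 2.32% of all Ensembl genes that reached 5 FPKM, in tables that the authors had chosen on these same samples. Tissue identity could not be checked on markers, because no gene of the smooth muscle, epithelium, stroma or macrophage lists has a symbol here.

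The on-off genes stood apart from ordinary genes of this tissue in how far they ranged, as the choice required. Of the 9710 Ensembl genes that reached 5 FPKM in some library, 9374, or 96.5%, were at 1 FPKM or more in all 12, and the median ratio of highest to lowest library was 1.76 among those above 0 everywhere. Of the 996 values of the on-off genes, 336 were exactly 0, 176 lay between 0 and 1 FPKM, 247 between 1 and 5, and 237 at 5 or more. The gap was often empty: 32 genes had no value between 0 and 1 FPKM, and in 14 every library that was not at 0 reached 5 FPKM. The choice fixes part of this, since 4 of the 14 were above 0 in 1 library only, which had to reach 5 FPKM.

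How many animals lacked a gene varied widely. A lone library at 0 was found for 27 genes, 2 to 6 such libraries for 37, 7 to 10 for 15, and 11 for 4. A level of 5 FPKM or more was reached in only 1 library by 36 genes, in 2 by 17, and in 6 or more by 14. The highest value had a median of 11.1 FPKM, with 38 genes peaking between 5 and 10, 33 between 10 and 50, and 12 above 50. The choice has an edge. Just inside it stood ENSOCUG00000023983, ENSOCUG00000009468 and ENSOCUG00000028089, with highest values of 5.05, 5.15 and 5.16 FPKM. Just outside stood ENSOCUG00000027381, ENSOCUG00000011845 and ENSOCUG00000021026, at 4.92, 4.85 and 4.71. On the low side the genes nearest to exact 0 were ENSOCUG00000005199, ENSOCUG00000016447 and ENSOCUG00000017655, with lowest values of 6.99e-58, 2.25e-37 and 3.24e-32 FPKM, which are 0 for any practical purpose and still left these genes out.

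**Figure D1:**
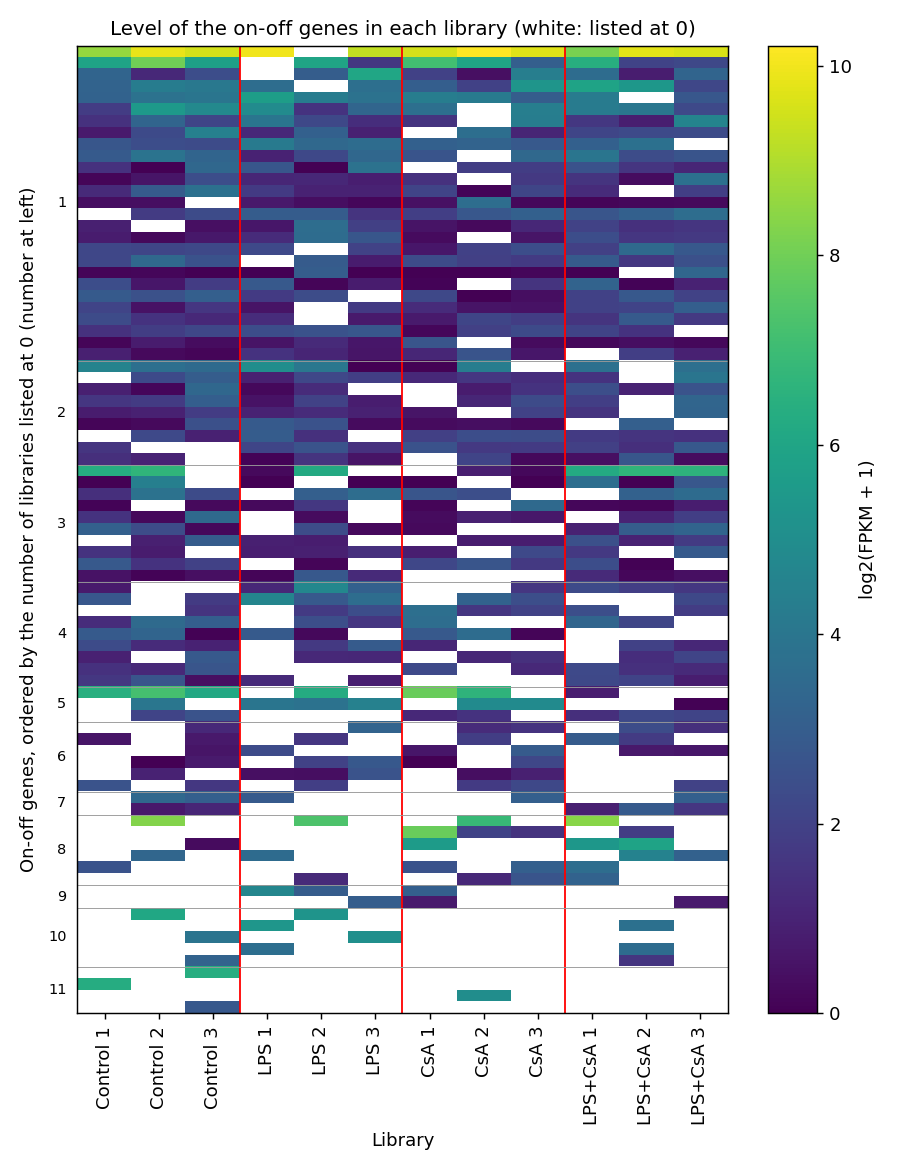
Level of the 83 on-off genes (rows) in the 12 libraries (columns, groups parted by red lines), as log2(FPKM + 1) in colour, with white for values listed at 0. Rows are ordered by the number of libraries at 0, from 1 at the top to 11 at the bottom, and white cells are spread over all 4 groups.

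The split ran through the treatment groups. In 55 of the 83 genes, at least 1 group held both a library at 0 and a library at 5 FPKM or more among its 3 animals. In 19 genes this was so in 2 or more groups and in 5 genes in 3 or more. Values of 0 fell in 1 group for 30 genes, in 2 groups for 14, in 3 for 16 and in all 4 for 23. None of the 83 genes was at 0 in all 3 animals of a group and at 1 FPKM or more in the other 9. None was at 5 FPKM or more in all 3 animals of a group and below 1 FPKM in the rest. How many of all genes show these patterns was not counted.

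The highest value of all belonged to ENSOCUG00000025109, which has no annotation here. Its FPKM was 383.5, 945.4 and 748.2 in Control, 1008, 0 and 609.1 in LPS, 741.5, 1182 and 850.5 in CsA, and 281.6, 873.7 and 786.7 in LPS+CsA. It was thus at 281.6 FPKM or more in 11 animals and listed at 0 in LPS 2. No read count behind these values is known here. ENSOCUG00000024802 was at 0 in the same animal and nowhere else, with 2.92 to 59.6 FPKM in the other libraries. These 2 genes were on, at 1 FPKM or more, and off in the same 12 libraries, and 22 genes in the whole table shared the pattern of each, among them ENSOCUG00000013968 and ENSOCUG00000028063. The reverse, on in LPS 2 alone, was found for 72 genes, the first of them ENSOCUG00000028010, ENSOCUG00000000208 and ENSOCUG00000002215. Such counts of shared patterns, here and below, rest only on the limit of 1 FPKM. ENSOCUG00000013968 was at 0.268 FPKM in LPS 2 and 1.14 in Control 1, and ENSOCUG00000028010 at 3.19 in LPS 2 and 0.89 in LPS 3.

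ENSOCUG00000023691 was on in exactly 1 animal of every group. It was at 319.1 FPKM in Control 2, 163.1 in LPS 2, 115.5 in CsA 2 and 339.9 in LPS+CsA 1, and at exactly 0 in the other 8 libraries. No animal lay between these states. No other gene of the table was on and off in the same 12 libraries, and 1 assembled locus, Rabbit_newGene_7158, was opposite in all 12, but it ranged only from 0.675 to 1.68 FPKM around the limit of 1. The 4 treatment groups held 0.352% of the variance of ENSOCUG00000023691 on the log2(FPKM + 1) scale, the lowest share among the on-off genes.

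A set of 3 genes peaked above 200 FPKM with other shapes. ENSOCUG00000008935 was at 59.8, 254.8 and 55.5 FPKM in Control, 0, 60.6 and 2.16 in LPS, 136.5, 62.1 and 7.62 in CsA, and 82.8, 3.21 and 3.63 in LPS+CsA. It formed a gradient more than a switch, with LPS 1 alone at 0. ENSOCUG00000022443 was at 86.9, 144.7 and 71.0 FPKM in Control, 0, 77.2 and 0 in LPS, 236.3, 99.9 and 0 in CsA, and 0.779, 0 and 0 in LPS+CsA. All 3 Control animals expressed it, and in LPS+CsA the highest animal was at 0.779. ENSOCUG00000024168 reached 236.2 FPKM in CsA 1, was at 3.11 in CsA 2, 1.90 in CsA 3 and 2.52 in LPS+CsA 2, and was at 0 in the other 8 libraries. Of these 3 only ENSOCUG00000008935 shared its on and off libraries, by the limit of 1 FPKM, with other genes. There were 52 alike, led by ENSOCUG00000029742, ENSOCUG00000005073 and ENSOCUG00000029264, and 45 opposite, led by ENSOCUG00000000999, ENSOCUG00000000448 and Rabbit_newGene_4368. ENSOCUG00000029742 was at 0.838 FPKM in LPS 1 and 1.91 in CsA 2.

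ENSOCUG00000023508 had values at 73.2 FPKM or more and values below 1, with none between. It was at 78.2, 102.9 and 0 FPKM in Control, 0.194, 73.2 and 0 in LPS, 0, 0.794 and 0.173 in CsA, and 74.9, 101.9 and 95.2 in LPS+CsA. It was on in all 3 LPS+CsA animals and off in all 3 CsA animals, while Control and LPS were mixed. ENSOCUG00000012395 was on and off in the same 12 libraries but at 0.373 to 1.95 FPKM only.

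ENSOCUG00000013331 was at 47.8 FPKM in CsA 1, 41.0 in LPS+CsA 1 and 59.8 in LPS+CsA 2, at 0.222 in Control 3, and at 0 elsewhere. All 3 of its high animals had received CsA, and 3 others that had received CsA were at 0. The assembled locus Rabbit_newGene_3002 was its mirror image: it was at exactly 0 in those 3 animals and at 1.05 to 6.69 FPKM in the other 9. ENSOCUG00000000936 was also opposite in all 12 libraries, and ENSOCUG00000005382 was alike but at 0.303 to 1.91 FPKM only.

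Some genes appeared in only 1 or 2 animals. ENSOCUG00000024605 was at 81.2 FPKM in Control 3 and at 0 in every other library, and ENSOCUG00000001350 was at 79.8 FPKM in Control 1 only. ENSOCUG00000026929 was on in 2 animals, with 66.9 FPKM for Control 2 and 38.1 FPKM for LPS 2. By the limit of 1 FPKM, such a pattern on or off in 1 animal was shared by several genes. There were 49 genes alike to ENSOCUG00000024605, including the on-off gene ENSOCUG00000029030 at 6.00 FPKM, and 35 to ENSOCUG00000001350, led by ENSOCUG00000007495. The last was at 2.93 FPKM in Control 1 but also at 0.836 in Control 3. The on-off gene ENSOCUG00000027865 was the opposite of ENSOCUG00000001350, at 0 in Control 1 alone and at 1.90 to 11.6 FPKM in the other 11. ENSOCUG00000022375 peaked at 65.0 FPKM in LPS 3, was at 0 in LPS 1, and lay between 0.335 and 19.6 in the other 10.

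**Figure D2:**
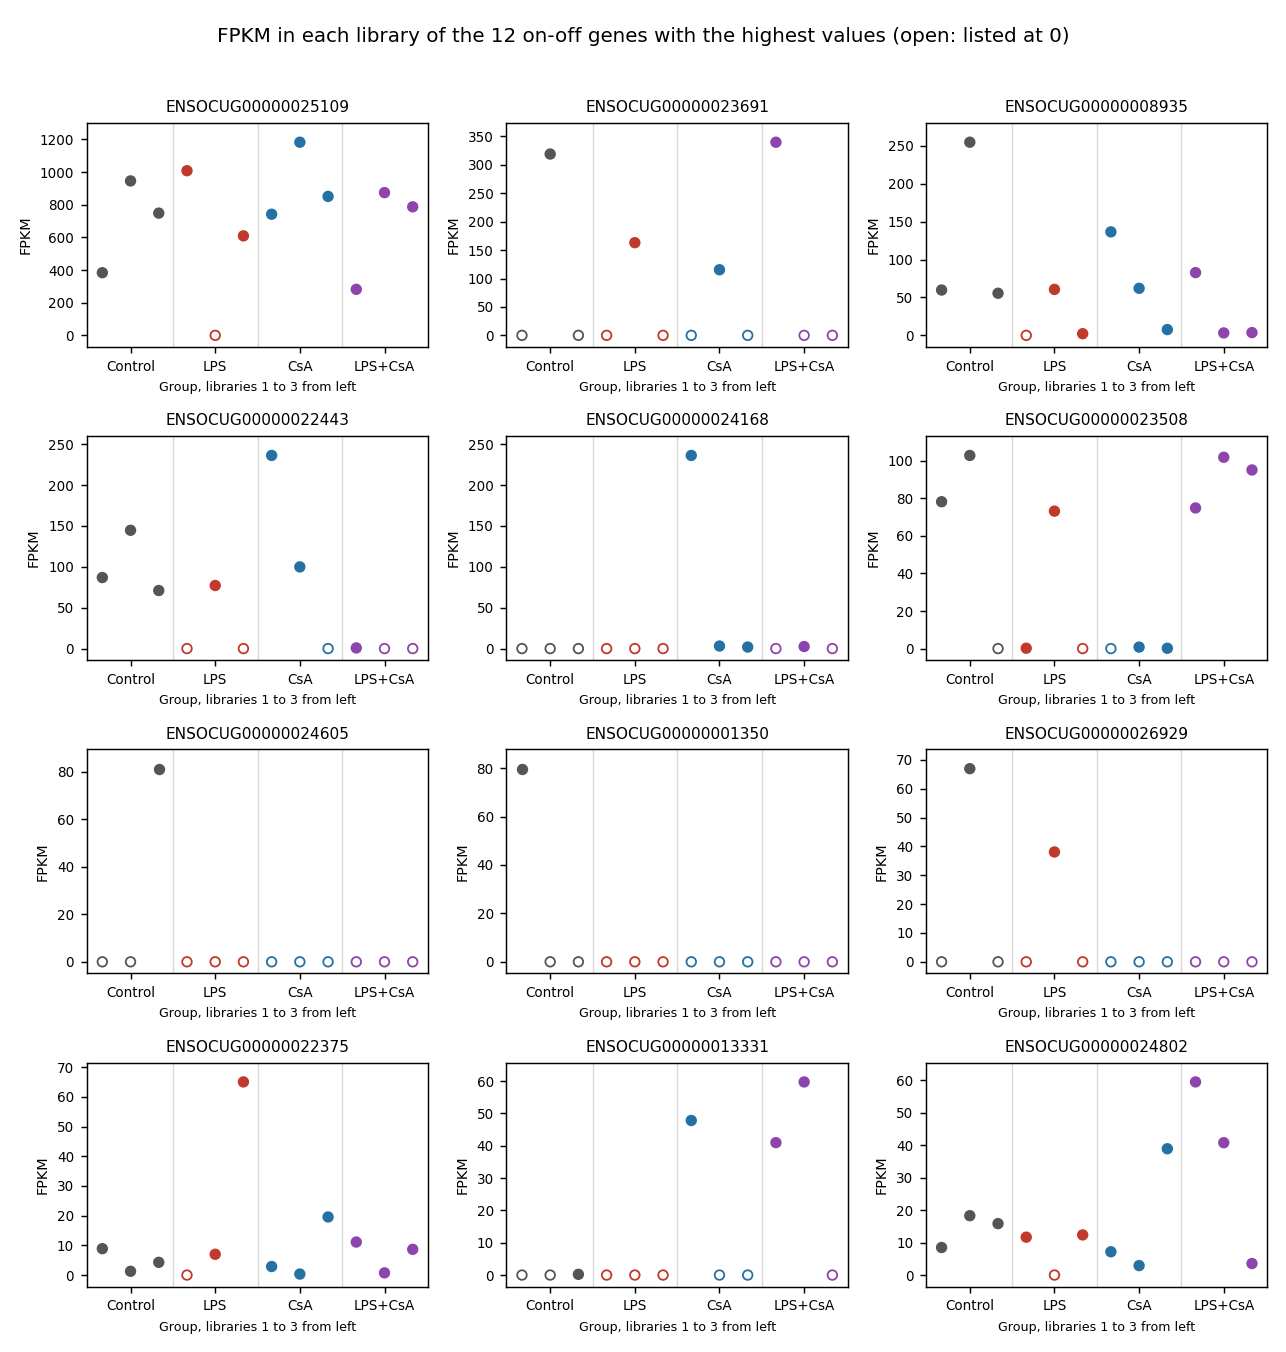
FPKM in each of the 12 libraries (3 per group, in the order of their numbers) for the 12 on-off genes with the highest values, with open circles for values listed at 0. ENSOCUG00000025109 lacks only LPS 2, ENSOCUG00000023691 is on in 1 animal of each group, and ENSOCUG00000024605 and ENSOCUG00000001350 are on in 1 animal each.

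On-off genes rarely moved as a block. Of the 56 genes with 2 or more libraries at 0, there were 54 different sets of such libraries. ENSOCUG00000014275 and ENSOCUG00000020954 shared a set, since both were on only in LPS 1, at 12.0 and 40.2 FPKM, and LPS+CsA 2, at 10.8 and 12.6. The other shared set was that of ENSOCUG00000024605 and ENSOCUG00000029030 in Control 3. Of all pairs of on-off genes, 6 were on and off in the same 12 libraries and 4 were opposite in all 12.

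Of a list of 12 motile cilia genes, 4 have a symbol here and 2 of these are on-off genes: FOXJ1 and C20orf85. FOXJ1 (ENSOCUG00000011472) is the transcription factor that drives the motile cilia programme, and C20orf85 (ENSOCUG00000012766) is known in human as a protein of ciliary microtubules. FOXJ1 was at 0.878, 0 and 0.342 FPKM in Control, 0.538, 11.5 and 2.86 in LPS, 0.471, 0.197 and 1.21 in CsA, and 3.09, 1.70 and 1.98 in LPS+CsA. C20orf85 was at 0.668, 0 and 0 FPKM in Control, 1.18, 25.2 and 7.79 in LPS, 0, 0 and 2.04 in CsA, and 3.96, 2.76 and 2.15 in LPS+CsA. Both peaked in LPS 2, were second in LPS 3 or LPS+CsA 1, and were on or off together in 11 of the 12 libraries.

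CDC20B and MCIDAS, which act when ciliated cells multiply their centrioles, are not on-off genes. CDC20B was at 9.98 FPKM in LPS 2 and at 0.0486 to 1.64 in the other 11 libraries. MCIDAS was at 1.25 FPKM in LPS 2 and at most 0.255 elsewhere. All 4 cilia genes with a symbol here thus had their highest value in the same animal. Symbols come only from the authors' comparison tables, chosen on these same samples, so this shared peak carries no weight of its own. The other genes of the cilia list could not be looked up. By the authors' deposited counts, the FOXJ1 values rested on 23, 0 and 9 reads in Control and 13, 331 and 80 in LPS. For C20orf85 the deposited counts were 12, 257 and 80 in LPS, against 36, 21 and 29 in LPS+CsA.

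ENSOCUG00000017473, which has no annotation here, followed the same animals. It was at 0.699, 0.165 and 0.574 FPKM in Control, 1.37, 11.1 and 5.56 in LPS, 0.216, 0 and 0.511 in CsA, and 4.32, 2.08 and 2.22 in LPS+CsA. It was on or off together with C20orf85 in 11 libraries and with FOXJ1 in 10. It was also the only on-off gene for which all 6 animals given LPS lay above all 6 given saline. That pattern was shown by 0.438% of the 12794 genes tested across the series. ENSOCUG00000017473 reached 1 FPKM only in the 6 animals given LPS and was among the tested genes through them, so its separation is a description. No on-off gene showed the reverse, which 0.117% of the tested genes did. None separated the 6 animals given CsA from the other 6, where 0.367% of tested genes were higher and 0.125% lower without overlap.

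RPL3 (ENSOCUG00000025196, by its annotation text) is a protein of the large ribosomal subunit that every cell needs. The locus annotated as RPL3 was at 0, 15.2 and 0 FPKM in Control, 14.6, 13.3 and 21.5 in LPS, 0, 28.2 and 28.4 in CsA, and 0, 0 and 0.0445 in LPS+CsA. Control and CsA each held animals at 0 and animals at 15.2 FPKM or more. LPS held only animals at 13.3 FPKM or more, and LPS+CsA only animals at 0.0445 or less. The deposited counts were 323, 339 and 544 reads in LPS, against 0, 0 and 1 in LPS+CsA, and the authors' deposited table gives a log2 fold change of -9.77 with a p of 7.63e-43 for LPS+CsA against LPS. On log2(FPKM + 1) over all animals the difference was -4.08 (SE 1.29), which did not pass (limma, adjusted p = 0.587), and it was -7.16 with 0.1 added in place of 1. Processed copies of ribosomal protein genes are common in mammalian genomes. No source used here says how reads matching several copies were counted, so this level is uncertain. Whether this locus is RPL3 itself or such a copy was not tested. Of the 6 ribosomal protein genes in the authors' tables, RPL3 was the only on-off gene.

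PPIA (ENSOCUG00000012631), cyclophilin A, the intracellular binding partner of cyclosporine A, also comes with many processed copies in mammals and was left out of the 83 by name. It was at 0, 13.0 and 0.359 FPKM in Control, 20.9, 25.0 and 22.5 in LPS, 0.132, 23.5 and 0.113 in CsA, and 10.8, 11.3 and 0.142 in LPS+CsA. It was on or off together with RPL3 in 9 of the 12 libraries.

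SMARCE1 (ENSOCUG00000016848, by its annotation text) is a DNA-binding subunit of SWI/SNF chromatin remodelling complexes. It was at 6.18, 1.82 and 2.96 FPKM in Control, 0, 0.0925 and 0 in LPS, 3.50, 5.45 and 2.22 in CsA, and 4.25, 0.0522 and 0 in LPS+CsA. It was at 1 FPKM or more in all 6 animals given saline and in 1 of the 6 given LPS. As for RPL3, no source used here says how reads matching several places were counted, so the level is uncertain. The deposited counts were 137, 36 and 65 reads in Control and 0, 2 and 0 in LPS, and the authors' deposited table gives a log2 fold change of -6.66 with a p of 1.4e-12. In limma the difference of LPS from Control was -2.07 (SE 0.58) on the log2(FPKM + 1) scale and did not pass (adjusted p = 0.75), and it was -4.74 with 0.1 added in place of 1.

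SLC25A36 (ENSOCUG00000023959, by its annotation text) carries pyrimidine nucleotides across the inner mitochondrial membrane. It was at 5.70, 4.28 and 4.02 FPKM in Control, 17.3, 9.93 and 11.1 in LPS, 7.73, 8.38 and 6.23 in CsA, and 7.68, 12.6 and 0 in LPS+CsA. LPS+CsA 3 alone was at 0, and the other 11 animals ranged from 4.02 to 17.3. The lowest LPS animal lay above the highest Control animal, and how many of all genes show this was not counted. For LPS against Control the authors' deposited table gives a log2 fold change of 1.27 with a p of 0.00136. The limma difference of 1.25 (SE 0.73) did not pass (adjusted p = 0.81).

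IBSP (ENSOCUG00000001046) encodes bone sialoprotein, a matrix protein best known from mineralised tissue. It was at 1.34, 6.60 and 12.6 FPKM in Control, 2.35, 0.954 and 0.952 in LPS, 3.29, 0.0749 and 3.40 in CsA, and 1.41, 0 and 2.69 in LPS+CsA. Control 3 and Control 2 were the highest animals, while Control 1 overlapped the other groups. The deposited counts were 47, 266 and 458 reads in Control and 87, 32 and 32 in LPS. The authors' deposited table gives a log2 fold change of -2.35 with a p of 0.000488, and the limma difference of -1.41 (SE 0.73) did not pass (adjusted p = 0.773). It was -2.12 without Control 1 and -0.85 without Control 3.

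The olfactory receptor 6C74-like gene (ENSOCUG00000021192) belongs to the odorant receptors, a large family of similar genes. It was at 6.38, 4.77 and 7.48 FPKM in Control, 2.32, 4.12 and 0 in LPS, 3.60, 1.26e-14 and 0.317 in CsA, and 2.96, 6.07 and 3.03 in LPS+CsA. All 3 Control animals lay above all animals of LPS and CsA, and LPS+CsA overlapped Control. How many of all genes separate in this way was not counted. The deposited counts were 59, 50 and 67 reads in Control and 22, 36 and 0 in LPS, and the authors' deposited table gives a log2 fold change of -1.61 with a p of 0.0463 for LPS against Control. The limma difference for LPS against Control was -1.47 (SE 0.63) and did not pass (adjusted p = 0.75), and without LPS 3, the animal at 0, it was -0.79. CsA differed from Control by -1.97 (SE 0.63), which did not pass either (limma, adjusted p = 0.932).

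**Figure D3:**
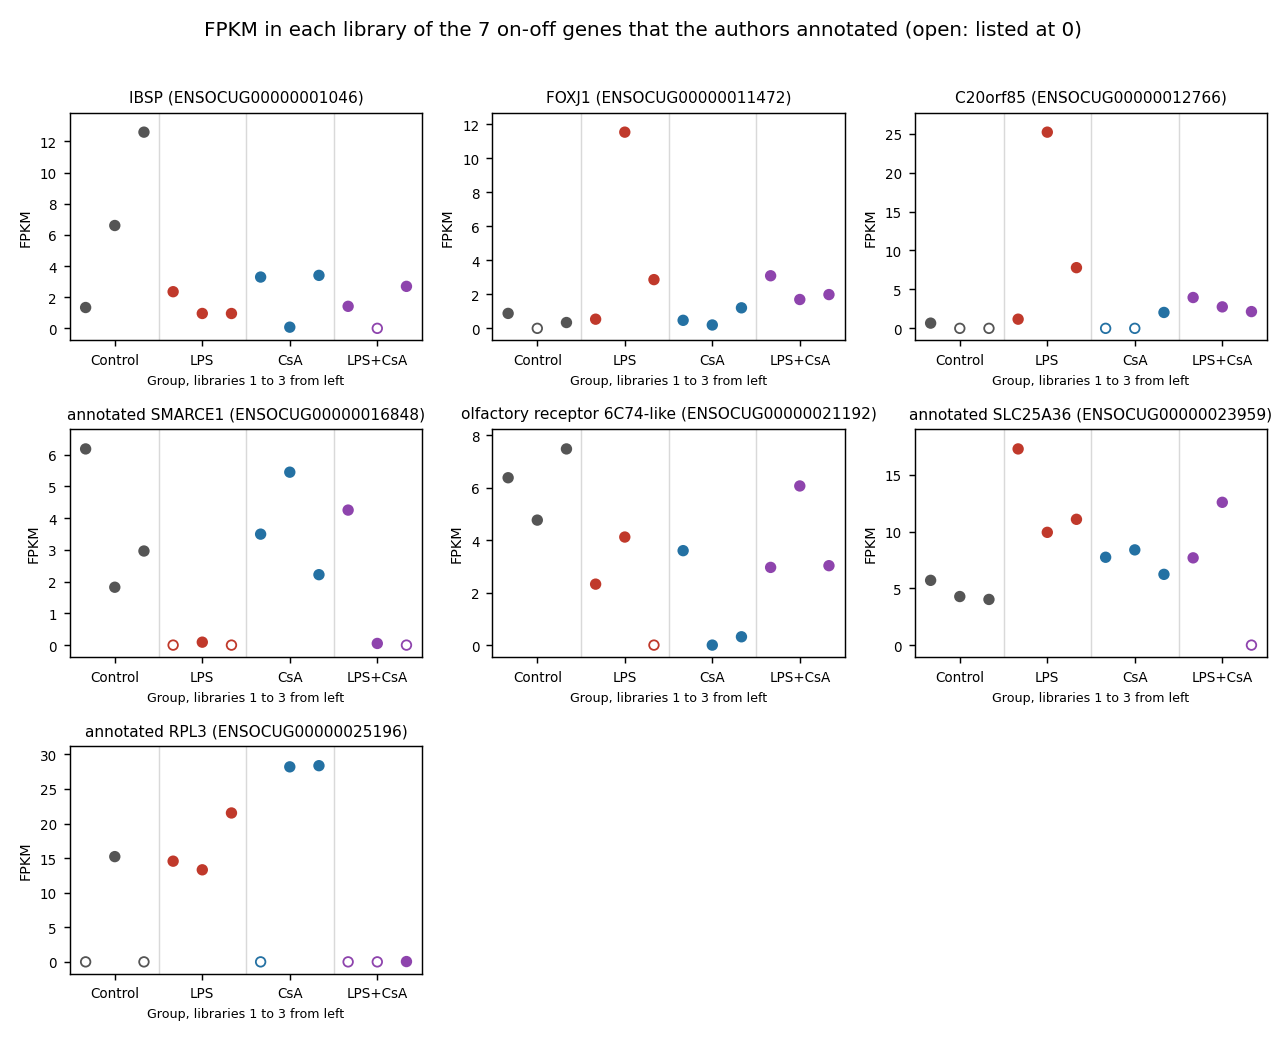
FPKM in each library (3 per group, in the order of their numbers) of the 7 on-off genes with an annotation, with open circles for values listed at 0. FOXJ1 and C20orf85 peak in LPS 2, and the gene annotated as SLC25A36 is at 0 in LPS+CsA 3 only. The gene annotated as RPL3 is at 13.3 to 21.5 in LPS and near 0 in LPS+CsA.

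For the listed genes an exact 0 came with a count of 0 in the libraries of the comparison table that listed the gene. In the authors' table of LPS against Control, all 14 FPKM values of 0 had a deposited count of 0, as had all 6 in the table of LPS+CsA against LPS. The reverse was looser, since counts of 0 came with up to 0.0767 and 0.0577 FPKM. For the 7 annotated genes 1 FPKM stood for 9.33 to 37.2 reads, so that 5 FPKM stood for 46.7 to 186 reads and the 3 reads that a count of 0 allows for 0.0806 to 0.321 FPKM, by counting error only. Zeros of the annotated genes in libraries outside their comparison table were not checked against counts here. These were LPS+CsA 3 for SLC25A36 and SMARCE1, and LPS+CsA 2 for IBSP. They were also Control 2, Control 3, CsA 1 and CsA 2 for C20orf85, and Control 1, Control 3 and CsA 1 for RPL3. For the other 76 genes the deposited counts do not reach and the depth is unknown. A very small value was rare: 16 values in 5 genes lay above 0 but below 0.01 FPKM.

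Libraries differed modestly in how many on-off genes they lacked. Between 21 and 28 were at 0 in the Control animals, 26 to 32 in LPS, 25 to 35 in CsA and 25 to 28 in LPS+CsA, with means of 24.7 ± 3.51, 30.0 ± 3.46, 30.3 ± 5.03 and 27.0 ± 1.73 (SD, n = 3). The ranges overlapped, and CsA 2 had the most at 35 and Control 3 the fewest at 21. CsA 2 also had the most genes at 0 in the whole table, 1694 against 1407 to 1574 in the other 11. CsA 2 was the lone animal at 0 for 7 on-off genes and LPS 2 for 5. Control 3 was the lone animal at 5 FPKM or more for 8 and LPS 3 for 6. In Control 3, CsA 3 and LPS+CsA 3 the neutrophil genes S100A8, S100A9 and S100A12 were also higher than in the other libraries, with S100A8 at 165.9, 250.9 and 344.1 FPKM against 4.46 to 129.2. Whether cell make-up or library depth had a part in these counts was not tested.

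**Figure D4:**
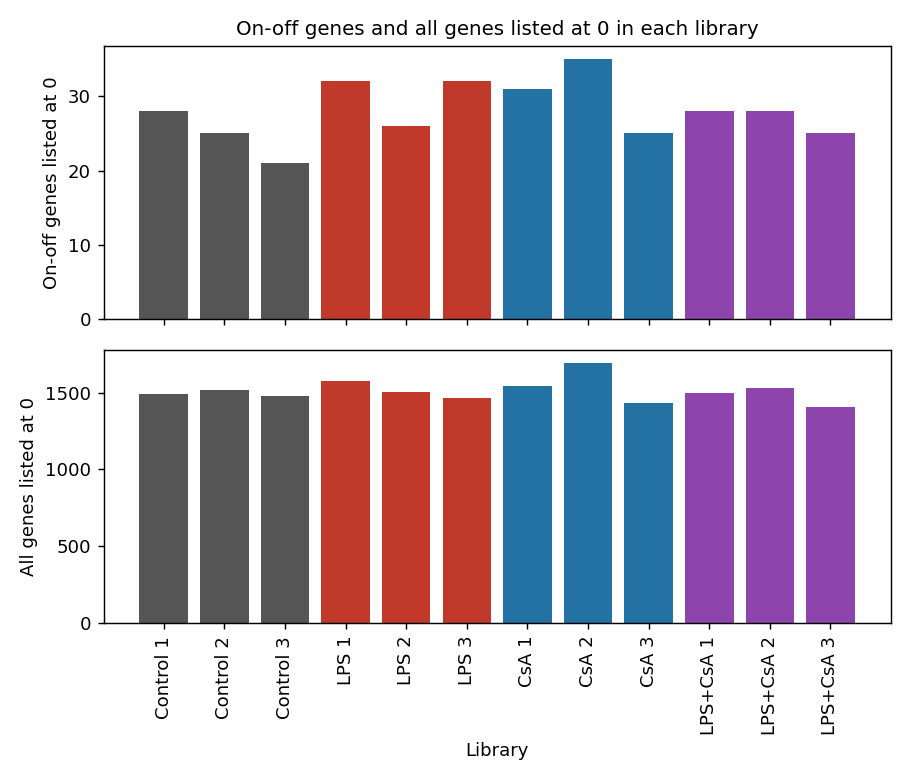
Number of on-off genes listed at 0 (upper bars) and of all genes listed at 0 (lower bars) in each of the 12 libraries, coloured by group. The upper counts run from 21 in Control 3 to 35 in CsA 2, and the lower counts from 1407 in LPS+CsA 3 to 1694 in CsA 2.

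By group, 7 on-off genes were at 0 in all 3 Control animals, 11 in all LPS, 12 in all CsA and 10 in all LPS+CsA animals. All 3 animals were at 1 FPKM or more for 22 genes in Control, 11 in LPS, 13 in CsA and 21 in LPS+CsA. Groups with both a 0 and a value of 5 FPKM or more were about as frequent in each: 19, 22, 20 and 20 genes. The treatment groups held a median of 31.8% of the variance of the on-off genes that were tested and 30.1% of that of all tested genes. A gene on in 1 animal only, such as ENSOCUG00000001350, has a share of 27.3% whatever the group of that animal. Shares of this size are therefore not a measure of a treatment effect.

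The group comparisons ask whether LPS, CsA or both shifted these genes. They were fitted with limma on log2(FPKM + 1) for all 12794 genes at 1 FPKM or more in at least 3 libraries, with adjustment over all of them. Of the 83 on-off genes 67 entered the fit, and the 16 others were on in too few animals. At an adjusted p under 0.05, 0 on-off genes were called in each of the 8 comparisons, where limma called 0 of the 12794 genes (0% in each). The smallest adjusted p of an on-off gene was 0.75 for LPS against Control, 0.587 for LPS+CsA against LPS, 0.932 for CsA against Control, 0.696 for LPS+CsA against CsA and 0.941 for LPS+CsA against Control. It was 1 for the interaction, 0.364 for LPS averaged over CsA and 0.451 for CsA averaged over LPS.

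At an unadjusted p under 0.05, limma picked 14 on-off genes for LPS against Control. These were 20.9% of the 67 tested, against 6.56% of all tested genes. The counts were 13 for LPS+CsA against LPS (19.4%, all genes 8.06%) and 5 for CsA against Control (7.46%, all genes 4.64%). They were 11 for LPS+CsA against CsA (16.4%, all genes 6.97%) and 8 for LPS+CsA against Control (11.9%, all genes 4.82%). The interaction had 12 (17.9%, all genes 3.06%). LPS averaged over CsA had 7 (10.4%, all genes 11.3%) and CsA averaged over LPS had 3 (4.48%, all genes 10.5%). An on-off gene enters the fit through the animals in which it is high, so these counts describe the genes and carry no weight of their own. The on-off genes had wide errors: for LPS against Control their median absolute difference was 0.93 with a median SE of 0.83 on the log2 scale, against 0.15 and 0.19 over all tested genes.

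ENSOCUG00000023508 and ENSOCUG00000022443 each had a group with high values in all 3 animals and a group below 1 FPKM throughout. In ENSOCUG00000023508 LPS+CsA stood 6.15 (SE 1.82) above CsA in log2(FPKM + 1), and in ENSOCUG00000022443 LPS+CsA stood at -6.33 (SE 1.98) relative to Control. Neither passed (limma, adjusted p = 0.701 and 0.941). In ENSOCUG00000017473 LPS averaged over CsA differed by 1.79 (SE 0.34), the smallest p of any on-off gene in the 8 comparisons, with an adjusted p of 0.364 in limma. Without LPS 1 the difference was 2.11 and passed (limma, adjusted p = 0.025), as 1 of 2 genes called among the 12727 tested in that fit (0.0157%). SMARCE1 differed by -1.71 (SE 0.41) in the same comparison, with the same adjusted p in limma. C20orf85 differed by 2.74 (SE 0.75) for LPS against Control, with an adjusted p of 0.75 in limma. With 0.1 added in place of 1, the differences of ENSOCUG00000017473, SMARCE1 and C20orf85 became 3.26, -3.95 and 5.01.

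Other genes with small p were at 0 in every animal of at least 1 group. ENSOCUG00000024556 was at 0 in all LPS and CsA animals and at 0.868, 6.39 and 2.05 FPKM in LPS+CsA, with 0, 0.602 and 1.16 in Control. Its difference of 1.80 (SE 0.44) for LPS+CsA against LPS was the same against CsA, as both stood at 0. ENSOCUG00000023983 was at 0 in all LPS animals, at 0, 3.21 and 5.05 FPKM in Control, 1.23, 1.79 and 0 in CsA, and 1.62, 3.68 and 3.24 in LPS+CsA, a difference of 1.90 (SE 0.59) for LPS+CsA against LPS. ENSOCUG00000027001 was at 0 in all CsA animals, at 2.12, 5.44 and 0.341 FPKM in Control, 1.35, 0 and 0.788 in LPS, then 3.58, 3.14 and 0.771 in LPS+CsA, with an interaction of 2.58 (SE 0.77). None of these 3 passed in limma, with adjusted p of 0.587, 0.587 and 1. The size of such differences depends on the value added before the logarithm: with 0.1 in place of 1 they became 4.57, 4.80 and 6.25.

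ENSOCUG00000027865 stood 1.79 (SE 0.59) higher in LPS+CsA than in Control, at 5.49, 7.65 and 11.6 FPKM against 0, 2.42 and 3.97, without passing (limma, adjusted p = 0.941). Without Control 1, the animal at 0, the difference was 1.11. For CsA averaged over LPS, ENSOCUG00000013331 differed by 2.77 (SE 1.15) and ENSOCUG00000024168 by 2.21 (SE 0.92), each through 3 or fewer animals above 5 FPKM (limma, adjusted p = 0.451 for both). Both genes reached 1 FPKM only in animals given CsA and entered the fit through them. Their differences with CsA are thus descriptions and carry no weight of their own. ENSOCUG00000024168 also differed by 3.82 (SE 1.30) between CsA and Control, where CsA 1 was at 236.2 FPKM and the other CsA animals at 3.11 and 1.90 (limma, adjusted p = 0.932). Without CsA 1 these differences of ENSOCUG00000024168 were 1.20 for CsA averaged over LPS and 1.79 for CsA against Control.

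**Figure D5:**
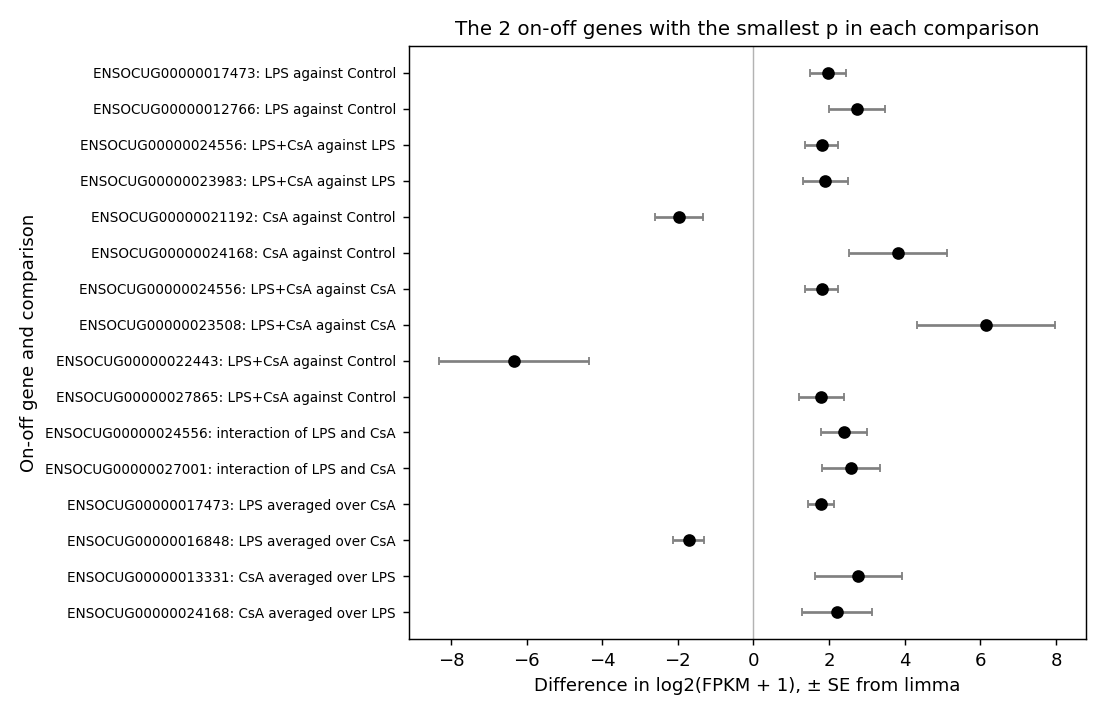
Difference in log2(FPKM + 1) with its standard error from limma (points and bars) for the 2 on-off genes with the smallest p in each of the 8 comparisons. The differences run from -6.33 to 6.15, the widest bars belong to ENSOCUG00000022443 and ENSOCUG00000023508, and none passed an adjusted p of 0.05.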

How the data were processed

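RNA of 12 uterine body samples was sequenced, 1 library per animal. Per the submitters' processing notes, the authors made the deposited FPKM values with TopHat2, Cufflinks and Cuffnorm. Tool versions and genome build: not given in the sources used here. Per the file headers, the deposited comparison tables hold a p-value, a log2 fold change, a read count and an FPKM value for the genes the authors listed. Read totals are unknown. No source used here says whether the deposited counts had been scaled.

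The on-off genes and the lists were chosen with earlier results of these data known. Named genes are those with a symbol, the 12 highest, up to 2 with the smallest p per comparison, and the genes at the limits of the choice; the other annotated genes and PPIA were named after their values were seen. Annotations came from the authors' tables, and 6 genes matched a RefSeq gene. Of 10 marker lists, including that of genes every cell uses, 5 had a gene with a symbol and 1 held an on-off gene; of 8 gene families, 2 did.

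Values were analysed as log2(FPKM + 1) with limma 3.58.1 in R 4.3.3: a mean per group over all libraries, variance trend, two-sided, Benjamini-Hochberg adjustment at 5% over the 12794 genes with at least 1 FPKM in 3 libraries. Adding 1 FPKM understates changes of low genes. The script was tested on simulated data. Other tools were Python 3.11.15, numpy 2.4.6, pandas 2.3.3 and matplotlib 3.10.9.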

Additional observations from a re-analysis of the deposited data

How the results depend on the processing

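The number of on-off genes depends on the limits: it was 342 with a highest library of 1 FPKM or more, 45 with 10 FPKM or more, 139 with values below 0.1 FPKM taken as off and 115 with values below 0.01, and between 73 (without CsA 2) and 81 with 1 library left out. On-off genes called by limma stayed at 0 in the 8 comparisons with a pseudocount of 0.1, no filter, median-of-ratios rescaling, quantile normalization and the replicate number as a block. Over all genes these fits called 0 as well, except that with no filter 2 of 17301 passed for LPS against Control and 2 for LPS+CsA against LPS. Leaving out 1 library at a time gave 0 to 1 for LPS averaged over CsA and 0 in the other comparisons. Without LPS 1, ENSOCUG00000017473 passed at 2.11 (limma, adjusted p = 0.025), as 1 of 2 genes called among 12727. That gene reached 1 FPKM only in animals given LPS and entered the fit through them, so this pass carries no weight of its own. Without CsA 1, limma called 7, 4, 3 and 1 of 12741 genes for LPS averaged, CsA against Control, CsA averaged and LPS+CsA against CsA, with no on-off gene among them. The other fits with a library left out called at most 1 gene in a comparison. For 16 on-off genes, those with the smallest p and the 7 annotated ones, 23 differences were recomputed. None of the 379 values reversed, and 27 moved by over 1.5 times, 18 of them with a pseudocount of 0.1 and 9 with a library left out. Many of the 379 could not move. A difference between groups stays the same without the filter, with the block, or when a library outside those groups is left out. FOXJ1 for LPS against Control moved from 1.63 to 0.84 without LPS 2. Same-numbered animals did not deviate together throughout (correlations of deviations -0.091 to 0.098 for number 1, -0.017 to 0.421 for number 2, 0.194 to 0.278 for number 3), so the numbers were not taken to pair animals. The fit with the replicate number as a block called 0 on-off genes. The 3 animals per group, and the unknown depth behind most of the genes, limit what the comparisons can show.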

Other observations

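Further on-off genes without annotation, named after their values were seen, show other shapes. ENSOCUG00000024282 was at 10.6 to 31.5 FPKM in 8 libraries and at 0.0462 or less in LPS 3, CsA 1, CsA 3 and LPS+CsA 2. ENSOCUG00000022033 was at 5.91 to 49.8 FPKM in 11 libraries and at 0 in LPS+CsA 2. ENSOCUG00000027304 was on in 2 animals, with 14.1 FPKM for Control 3 and 33.2 FPKM for LPS 3, and listed at 0 elsewhere, and ENSOCUG00000025374 was at 31.1 FPKM in CsA 2 only. ENSOCUG00000025750 was at 20.0 FPKM in Control 2, 11.8 in LPS+CsA 1 and 5.90 in LPS+CsA 3, with at most 6.93e-05 in the other 9. Among the loci that the authors assembled, 38 of the 653 that reached 5 FPKM in some library were also at 0 in another, or 5.82%, against 0.855% of the Ensembl genes.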
